A study of Disanthus cercidifolius subsp. longipes with 9 samples.

Results

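Near-mature leaves (stage F2) of Disanthus cercidifolius var. longipes were compared with both the younger and the older stage at once. The contrast was the log2 level at F2 minus the average of the log2 levels at F1 and F3, each weighted equally, and was taken over the 3 F2 libraries and the other 6 of 9 libraries for all 24385 transcript clusters of the deposited count table. Because a contrast above 0 also arises where a cluster was as high at one neighbouring stage as at F2, a transient peak was counted only where F2 exceeded F1 and F3 in separate tests, and a transient dip only where F2 was below both.

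The plant is a deciduous shrub of the witch hazel family whose leaves are used as ornamental foliage, and the study followed its leaf development from young (F1) through near-mature (F2) to mature leaves (F3) by sequencing leaf mRNA. F2 marks the time at which the blade stops gaining area. The labels give no treatment, and the stages differ in leaf age and in calendar date together, so that season and age cannot be told apart. The labels date the stages to July 20, July 23 and July 26, whereas the methods of the study place them about a month apart from late April to late June, and the labels also name other kits and 2 mouse genome builds, GRCm38 and mm10. Leaves came from 3 trees, but which tree gave which library is not given in the sources used here, and p-values therefore measure the spread between these libraries, which may be technical.

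A leaf that reaches full size stops dividing and expanding its cells and becomes a net exporter of sugar. Light is captured by chlorophyll a-b binding proteins, the antenna that feeds both photosystems, and cells that grow or divide need many ribosomes, histones and replication proteins. Dehydrins and other late embryogenesis abundant proteins are hydrophilic proteins made under drought and cold, lipoxygenases begin the synthesis of the hormone jasmonate from plastid lipids, and nucleotide-binding resistance proteins are immune receptors inside the cell.

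Of the clusters with primers in the study's table of quantitative PCR, 1 was a transient peak and 1 a transient dip, and their primers are shown as the only sequences of these clusters in the sources used here. They are written 5′ to 3′, and the capitals mark the letters of a start codon in the forward primer and the reverse complement of a stop codon in the reverse primer.
Cluster-16293.2 (peak) forward: ATGttgatggtacatgcttc
Cluster-16293.2 (peak) reverse: TCAccatgccattcccttt
Cluster-15371.1 (dip) forward: ATGgcctccgcagatgttga
Cluster-15371.1 (dip) reverse: CTAgtttctccagctgcc
Cluster-16293.2, whose best match is an uncharacterized oak protein, gave FPKM (fragments scaled to the length of the transcript and the size of the library) of 66.6, 64.5 and 67.2 at F1, 159, 161 and 151 at F2 and 52.8, 62.6 and 58.3 at F3. Every F2 library was above all 6 others, and the contrast was 1.46 ± 0.07 (log2 ± SE, adjusted p = 2.81e-07, edgeR quasi-likelihood test with Benjamini-Hochberg adjustment over all clusters, as for every adjusted p below). Cluster-15371.1 matched GRP1A, a glycine-rich RNA-binding protein that in Arabidopsis is under clock control, and gave 888, 969 and 818 at F1, 276, 267 and 278 at F2 and 2161, 2218 and 1840.2 at F3 FPKM. The F2 libraries were the lowest without overlap, with a contrast of -2.21 ± 0.10 (adjusted p = 2.58e-07).

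The counts summed to between 8657054 and 14284676 fragments per library over the clusters of the table, which holds only clusters that the authors had called between at least 1 pair of stages, so that every share below is a share of such clusters and not of all transcripts. At F3 the table held 42.2% to 42.5% of the library size implied by counts and FPKM together, against 50.6% to 51.6% at F1 and F2, and the scaling factors of edgeR's trimmed mean of M values (TMM) were 1.17 to 1.23 at F3 and 0.89 to 0.95 elsewhere. Scaling by relative log expression (RLE) instead shifted the median contrast of all clusters by -0.17 (from 0.29 to 0.11), so the counts of peaks and dips under RLE stand beside those under TMM. Gene names come from the best protein match in other species in the table (14669 clusters in Swiss-Prot), 13560 clusters share their number with another cluster and may be isoforms or allelic copies that divide reads between them, and sums over a number contain only the clusters in this table. Of the mesophyll markers listed, 55 clusters were in the table and their most abundant member, an antenna protein, reached 6126 FPKM, while the flower organ list held 1 cluster, matched to AGAMOUS, at 2.9, 2.93 and 3.21 at F1, 4.99, 4.4 and 4.2 at F2 and 9.21, 11.9 and 13.6 at F3 FPKM. In bulk leaf RNA, fewer cells of a type and less RNA per cell cannot be told apart.

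Of the 24385 clusters, 6596 (27.0%) were higher at F2 in the contrast and 3602 (14.8%) were lower, at an adjusted p under 0.05 and at least a 2-fold difference. Transient peaks numbered 1935 (7.94%) and transient dips 1301 (5.34%). Under RLE scaling 5474 (22.4%) were higher and 4621 (19.0%) lower, and there were 1444 peaks (5.92%) and 1706 dips (7.00%). Peaks thus made up 59.8% of peaks and dips under TMM and 45.8% under RLE, and which of the classes was larger depended on the scaling. All 1444 RLE peaks were among the TMM peaks, and all 1301 TMM dips were among the RLE dips. The median peak was 1.83 above F1 and 2.32 above F3 on the log2 scale, and the median dip was -1.95 against F1 and -2.48 against F3. In 1871 of the peaks and 1179 of the dips the 3 F2 libraries did not overlap the other 6 in FPKM. Of the peaks, 150 stood at 0 counts in all 6 other libraries, and 164 dips stood at 0 in all F2 libraries. Among the 4412 clusters whose mean over the 9 libraries reached 10 FPKM, 270 (6.12%) were peaks and 336 (7.62%) were dips.

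**Figure D1:**
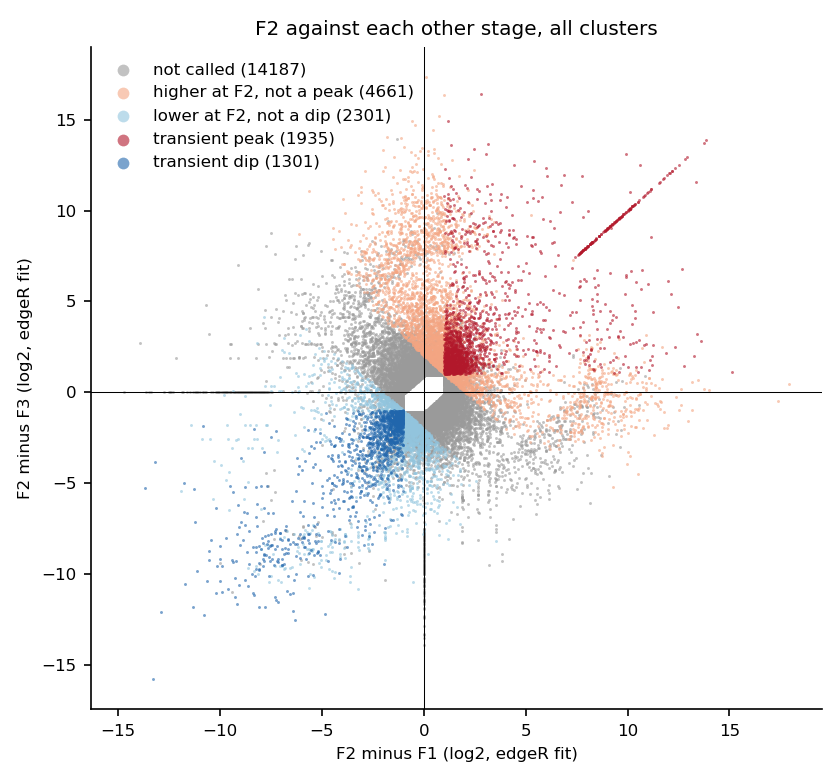
Each point is 1 of the 24385 clusters, with the fitted log2 difference of F2 from F1 on the horizontal axis and from F3 on the vertical axis, coloured by class. Peaks (1935) fill the upper right corner and dips (1301) the lower left, the line of points at the upper right holds clusters at 0 counts at F1 and F3, where fitted values are not bounds on a fold, and the empty centre holds no cluster of this table.

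Most clusters called in the contrast did not pass both tests of a peak or dip. Of the 4661 clusters that were higher without being a peak, 3405 were called above F3 and not above F1, and 1193 above F1 and not above F3. The F2 mean was above both other means in 3101 of these 4661 and between them in 1560. Of the 2301 clusters that were lower without being a dip, 1750 were called below F3 only and 551 below F1 only. The F2 mean was below both other means in 1896 of these 2301 and between them in 405. When the clusters of a number were summed, 14454 sums gave 1282 peaks (8.87%) and 674 dips (4.66%), with 3567 sums higher (24.7%) and 2115 lower (14.6%). Of the single-cluster peaks, 1139 belonged to a sum that was itself a peak and 2 to a sum that was a dip. Of the dips, 662 belonged to a sum that was a dip and 17 to a sum that was a peak. Both a peak and a dip occurred among the clusters of 126 numbers.

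The largest peaks with a protein match, a stage mean of at least 10 FPKM and a summed number that was also a peak were, in 9 of 10 cases, clusters that were nearly silent on either side of F2. Cluster-4629.0, matched to Albumin-2, a seed albumin of pea, gave 0 in all 3 libraries at F1, 34.1, 33.8 and 30.1 at F2 and 0 in all 3 libraries at F3 FPKM, which is at least 549-fold above F1 and at least 599-fold above F3 with the floor set at 3 counts per library. Cluster-42634.0, matched to Laccase-1, one of the copper oxidases that couple phenolic compounds, gave 0.02, 0 and 0.04 at F1, 23.3, 22.7 and 23.4 at F2 and 0 in all 3 libraries at F3 FPKM. Its counts were at least 389-fold above F3 and gave a ratio of 1073 to F1 (95% counting interval 367 to 5204). Laccase-1 was thus found in all 3 F2 libraries and hardly anywhere else.

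Cluster-5214.1, matched to the resistance protein RGA3, gave 0 in all 3 libraries at F1, 9.88, 11.1 and 11.1 at F2 and 0, 0.01 and 0 at F3 FPKM, at least 424-fold above F1. Cluster-53383.0, matched to the photosystem II antenna protein CP29.1, gave 0.54, 0.49 and 0.22 at F1, 293, 279 and 286 at F2 and 0.17, 0.79 and 0.34 at F3 FPKM, a contrast of 9.57 ± 0.26 (adjusted p = 1.61e-08). The sum over the 2 clusters of its number had a smaller contrast of 3.11, so part of this difference lay between clusters of the same number. Cluster-39954.5 and Cluster-41952.8 both matched UPF0481 protein At3g47200, a family without a known role. The former gave 0 in all 3 libraries at F1, 19.3, 19 and 21.3 at F2 and 0.35, 0.1 and 0.16 at F3 FPKM. The latter gave 38.6, 38.4 and 33.9 at F1, 242, 257 and 251 at F2 and 0 in all 3 libraries at F3 FPKM, at least 3752-fold above F3. In each of these 4 clusters all F2 libraries were above the other 6.

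The remaining 4 of the 10 were enzymes. Cluster-53370.0, matched to deoxypodophyllotoxin synthase, a dioxygenase of lignan synthesis in mayapple, gave 0 in all 3 libraries at F1, 13.3, 14.8 and 10.3 at F2 and 0 in all 3 libraries at F3 FPKM, at least 30.2-fold above F1 and 32.9-fold above F3. Cluster-53979.1, matched to the chloroplast phosphatase IMPL1 of the inositol monophosphatase family, gave 1.48, 0 and 0.5 at F1, 33.1, 39.5 and 37.9 at F2 and 0 in all 3 libraries at F3 FPKM. In both, the F2 libraries stood clear of the other 6. Cluster-36539.0, matched to a GDSL esterase/lipase, gave 0.73, 0.44 and 0.68 at F1, 25.8, 24.4 and 25.2 at F2 and 0 in all 3 libraries at F3 FPKM, at least 302-fold above F3. Cluster-22692.2, matched to the long-chain-alcohol oxidase FAO2, gave 0 in all 3 libraries at F1, 10.7, 9.61 and 13 at F2 and 0, 0.84 and 0 at F3 FPKM, and its only reading outside F2 was in F3 replicate 2.

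The 10 largest dips, chosen in the same way, fell to 0 or close to it at F2, and their levels at F3 differed widely. Cluster-41098.2, matched to Elongation factor 2, which moves the ribosome along the mRNA, gave 15.6, 17.6 and 16.9 at F1, 0 in all 3 libraries at F2 and 103, 104 and 96 at F3 FPKM. With the floor of 3 counts, F1 was at least 406-fold and F3 at least 2253-fold above F2. Cluster-53592.0, matched to UDP-glycosyltransferase 83A1, gave 0.96, 1.38 and 0.94 at F1, 0 in all 3 libraries at F2 and 19.8, 18.6 and 17.6 at F3 FPKM. Cluster-23520.0, matched to Galactinol synthase 2, which makes the galactosyl donor of raffinose sugars, gave 0.45, 0.8 and 0.08 at F1, 0 in all 3 libraries at F2 and 13.6, 11.7 and 12.6 at F3 FPKM, at least 3.34-fold above F2 at F1 and at least 85.8-fold at F3. In all 3 the stages did not overlap, and F3 was the highest.

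Cluster-39988.0 matched HEADING DATE 3A, the rice florigen, a mobile signal for flowering, and gave 2.01, 3.5 and 1.53 at F1, 0, 0.16 and 0 at F2 and 19.6, 22.1 and 19.9 at F3 FPKM. Its counts at F1 were 40.3 times those at F2 (95% counting interval 13.5 to 198), and those at F3 were 322 times (110 to 1563). Cluster-42739.0, matched to trans-resveratrol di-O-methyltransferase, which methylates a stilbene in grapevine, gave 3.2, 3.91 and 3.19 at F1, 0.07, 0.18 and 0.53 at F2 and 93.9, 105 and 105 at F3 FPKM, a contrast of -6.17 ± 0.33 (adjusted p = 7.08e-07). Cluster-45558.2, matched to dehydrin DHN3, gave 15.9, 20.4 and 19.2 at F1, 0.64, 0.19 and 0.92 at F2 and 53.3, 52 and 43.8 at F3 FPKM, a contrast of -5.67 ± 0.35 (adjusted p = 1.74e-06). These 3 clusters were also highest at F3, with F2 below every F1 library.

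The other 4 were at their highest at F1 or did not separate from F3. Cluster-21759.1, matched to ORG2, a basic helix-loop-helix factor of the iron deficiency response in Arabidopsis, gave 60.4, 65.6 and 58.7 at F1, 0.03, 0.16 and 0 at F2 and 2.78, 4.01 and 3.15 at F3 FPKM, a contrast of -7.33 ± 0.34 (adjusted p = 3.19e-07). Cluster-34511.0, matched to a 6-phosphogluconolactonase, an enzyme of the pentose phosphate pathway, gave 24.7, 24.6 and 24.3 at F1, 0.08, 0 and 0.05 at F2 and 0.64, 0.74 and 0.59 at F3 FPKM. Both fell sharply from F1 and regained only a small part of that level at F3. Cluster-33267.0, matched to tyrosine decarboxylase, which forms tyramine, gave 10.5, 10.02 and 10.8 at F1, 0 in all 3 libraries at F2 and 0, 0.18 and 0.11 at F3 FPKM, and F3 replicate 1 at 0 overlapped F2. Cluster-57614.1, matched to SUPPRESSOR OF K(+) TRANSPORT GROWTH DEFECT 1, an ATPase of endosomal sorting, gave 16.6, 23.7 and 22.3 at F1, 0 in all 3 libraries at F2 and 0, 15 and 23.7 at F3 FPKM. Because F3 replicate 1 also stood at 0 there, its stages overlapped and its adjusted p was the weakest of the 10 (0.00928).

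**Figure D2:**
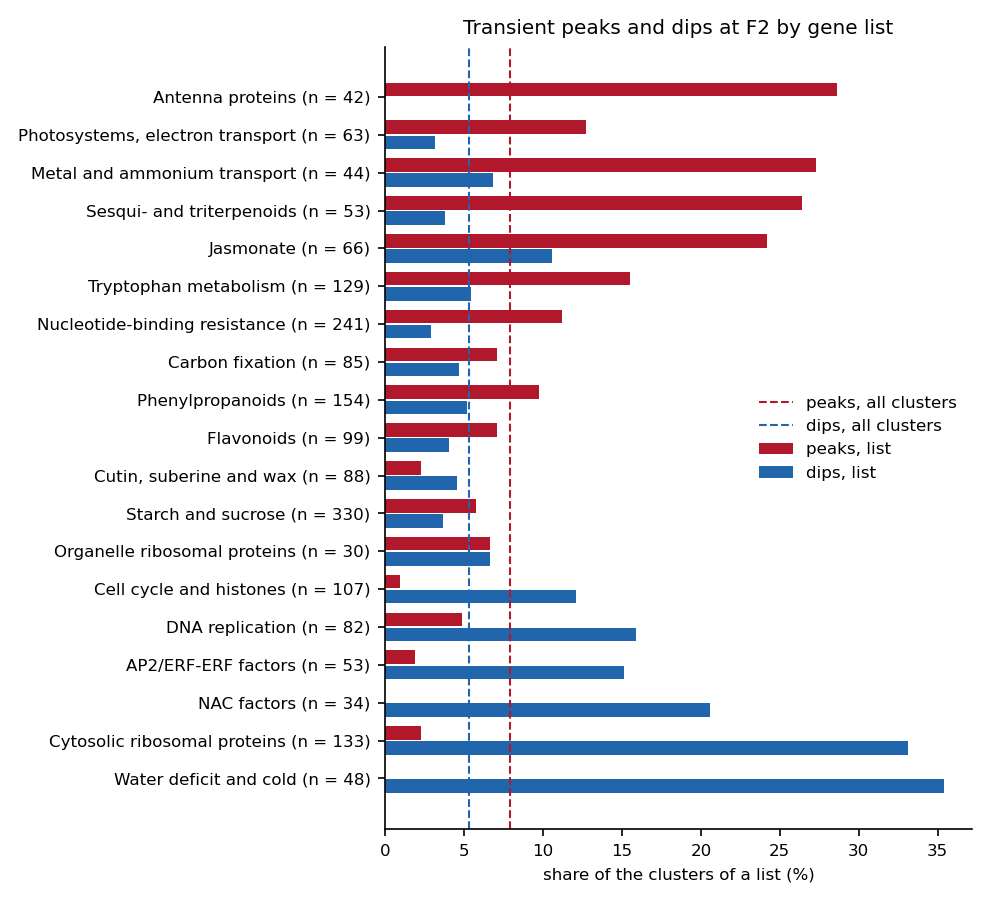
Bars give the share of the clusters of each gene list that were transient peaks (red) or transient dips (blue) at F2, in percent, and dashed lines give the shares over all 24385 clusters (7.94% and 5.34%). Antenna proteins reached 28.6% peaks with no dip, whereas cytosolic ribosomal proteins reached 33.1% dips and the water deficit and cold list 35.4% dips with no peak. The ribosomal protein and water deficit lists were added after values were seen. So were those of metals and ammonium, tryptophan metabolism and nucleotide-binding resistance.

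Antenna proteins formed the clearest group of peaks. Of 42 clusters of the KEGG antenna pathway, 36 were higher in the contrast and 0 were lower by edgeR, 12 were peaks (28.6%) and 0 were dips, with 11 peaks under RLE. Lower clusters and dips also numbered 0 at an unadjusted p under 0.05, by DESeq2 and by limma. The median contrast was 1.85 beside 0.29 over all clusters, and 8 of 15 summed numbers were peaks. The FPKM of the list summed to between 36454 and 39315 per library at F1, to between 71273 and 74598 at F2 and to between 15650 and 16772 at F3, so that the stages did not overlap.

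Cluster-47164.0, matched to chlorophyll a-b binding protein 16, a major antenna protein of photosystem II, gave 2620.3, 2523 and 2569 at F1, 5593, 5737 and 6126 at F2 and 1006, 980.3 and 925 at F3 FPKM, which was 1.22 ± 0.05 above F1 and 2.75 ± 0.05 above F3 on the log2 scale (contrast 1.99 ± 0.04, adjusted p = 3.76e-09). Cluster-39499.0, matched to chlorophyll a-b binding protein 6, an antenna protein of photosystem I, gave 2436, 2006 and 2530.4 at F1, 5502, 5533 and 5766 at F2 and 1265, 1203 and 1229 at F3 FPKM (contrast 1.83 ± 0.05). Both photosystems were therefore represented among the peaks. Among the minor antenna proteins that link the main complex to the core of photosystem II, Cluster-52822.8 (CP26) gave 1695, 1357 and 1764 at F1, 5023, 5136 and 5361 at F2 and 1170.0, 1125 and 1164 at F3 FPKM, with a contrast of 2.03 ± 0.06. Cluster-36179.0 (CP29.1) gave 1297, 1134 and 1362 at F1, 3136, 3255 and 3358 at F2 and 446, 430.4 and 388 at F3 FPKM, with a contrast of 2.27 ± 0.06. In these 4 clusters F1 was the second highest stage and no stage overlapped another, and their adjusted p values were at most 1.86e-08.

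The photosystems and electron transport chain followed less uniformly. Of 63 clusters, 31 were higher and 2 lower, 8 were peaks (12.7%) and 2 were dips (3.17%), with 7 and 2 under RLE, and the median contrast was 1.10. Most of these peaks were of low abundance. Of the 26 clusters of the list with a mean of at least 10 FPKM, 2 were peaks, beside 6.12% of all such clusters. Cluster-40591.0, matched to subunit II of photosystem I, which docks ferredoxin, gave 289, 260.0 and 276 at F1, 975, 995 and 1026 at F2 and 111, 104 and 101 at F3 FPKM, 1.91 ± 0.05 above F1 and 3.42 ± 0.05 above F3 on the log2 scale (adjusted p of the contrast = 1.05e-09). Cluster-50538.0, matched to oxygen-evolving enhancer protein 3, gave 2.71, 3.55 and 3.58 at F1, 8.06, 7.99 and 8.73 at F2 and 3.12, 1.33 and 2.7 at F3 FPKM, a contrast of 1.67 ± 0.26. The F2 libraries stood above the rest in both, although the second cluster was of low abundance. In the carbon fixation pathway the shares of single clusters were close to those of all clusters, with 6 peaks (7.06%) and 4 dips (4.71%) of 85. Under RLE there were 2 peaks and 5 dips. Of these clusters 30 were higher (35.3%, beside 27.0% of all clusters) and 12 lower. As sums the pathway stood higher, with 8 peaks and 1 dip among 47 numbers, beside 8.87% and 4.66% of all sums. Of these sums 22 were higher and 4 lower, and their median contrast was 0.83.

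The KEGG glyoxylate pathway, which includes photorespiration, held 12 peaks (10.3%) and 5 dips (4.31%) among 116 clusters, with 36 higher and 7 lower and a median contrast of 0.82. Under RLE and by DESeq2 alike it held 7 peaks and 6 dips. Its members are not all photorespiratory, since the dips included matches to L-type lectin receptor kinases, a probable CoA ligase and malate synthase. Of the peaks, 4 were catalases. Photorespiration recycles the side product of oxygen fixation through the peroxisome. Cluster-44332.9, matched to catalase isozyme 1, which removes the hydrogen peroxide formed there, gave 574, 471 and 561 at F1, 1518, 1588 and 1651 at F2 and 593, 573 and 595 at F3 FPKM, 1.61 ± 0.06 above F1 and 1.60 ± 0.06 above F3 on the log2 scale (adjusted p of the contrast = 2.49e-08). Its counts at F2, after scaling, were 3.06 times those at F1 and 3.03 times those at F3, with no overlap. Cluster-52594.3, matched to glutamine synthetase, which fixes ammonium, gave 7.9, 9.34 and 8.61 at F1, 19.7, 17.5 and 20.9 at F2 and 8.93, 11.3 and 9.42 at F3 FPKM. Its contrast was 1.19 ± 0.17, and under RLE scaling it was higher at F2 without passing as a peak.

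**Figure D3:**
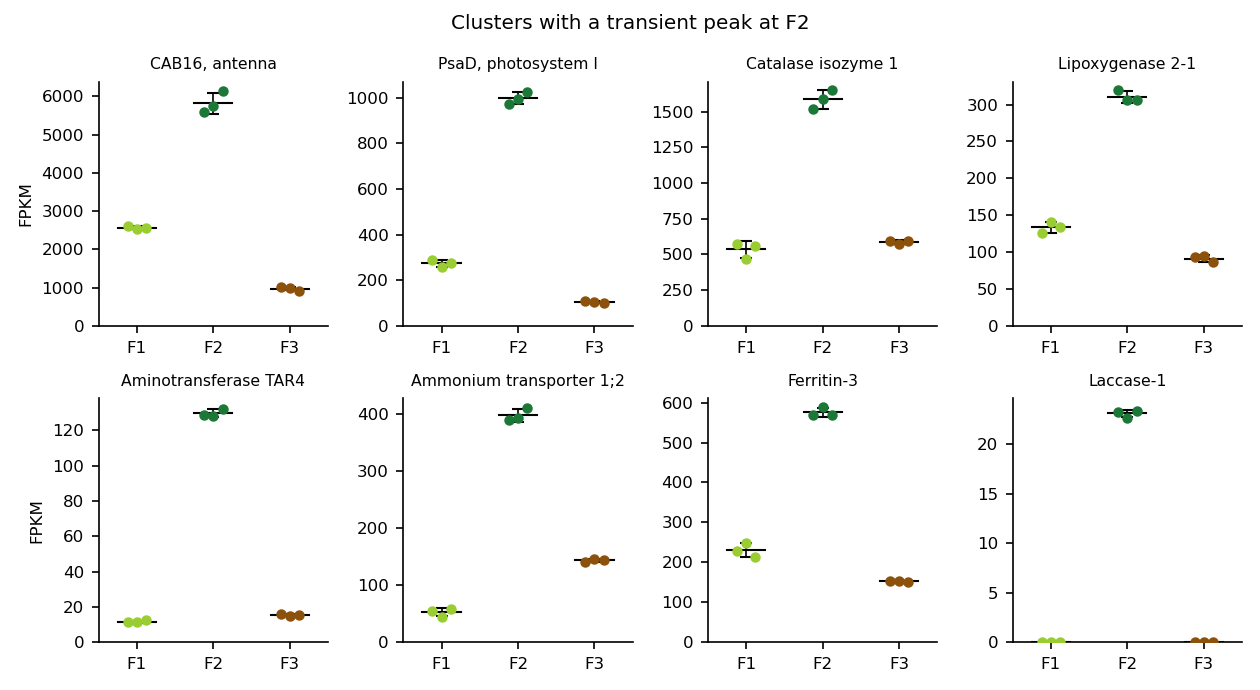
FPKM of 8 clusters with a transient peak, each point 1 library, with the mean (long line) and SD over the 3 libraries of a stage, on axes that start at 0. In every panel the 3 F2 libraries lie above the other 6, from CAB16, with 2.33 times the F1 level, to Laccase-1, which was near 0 outside F2.

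Genes of jasmonate synthesis and response were found in both classes. Of 66 clusters with jasmonate-related names, 35 were higher and 11 lower, 16 were peaks (24.2%) and 7 were dips (10.6%), with 16 peaks and 10 dips under RLE. The median contrast was 1.28, or 1.09 with clusters at 0 counts set to the floor. The peaks were synthesis and jasmonate-induced genes, with 7 clusters of linoleate 13S-lipoxygenase 2-1, 1 of lipoxygenase 3-1, 1 of lipoxygenase 2, 3 of allene oxide cyclase, 2 of jasmonate-induced oxygenase 2 and 2 of a 23 kDa jasmonate-induced protein. The dips included 2 clusters of TIFY 10A and 1 of TIFY 9, repressors that are rapidly induced by the hormone, 2 of methyl jasmonate esterase 1, 1 of 12-oxophytodienoate reductase 1 and 1 of the 23 kDa protein. The 66 clusters came from only 23 numbers, of which 4 were peaks and 3 dips as sums, with a median contrast of 0.65 over the sums.

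Cluster-56222.2, matched to the chloroplast linoleate 13S-lipoxygenase 2-1, gave 125, 141 and 135 at F1, 319.6, 306 and 306 at F2 and 93.1, 94.2 and 86.2 at F3 FPKM, a contrast of 1.60 ± 0.06 (adjusted p = 1.41e-07). Cluster-56433.0, matched to lipoxygenase 3-1, gave 30.2, 27 and 34 at F1, 89.7, 90.2 and 93.7 at F2 and 19.6, 17.7 and 19.4 at F3 FPKM, a contrast of 2.04 ± 0.06 (adjusted p = 1.74e-08). Both lipoxygenases were more than 2-fold above F1 and F3 without overlap. Cluster-50589.0, matched to TIFY 10A, gave 18.4, 19.4 and 16.8 at F1, 5.51, 5.57 and 6.31 at F2 and 27.9, 27.3 and 24.5 at F3 FPKM, a contrast of -1.82 ± 0.10. Cluster-22849.0, matched to methyl jasmonate esterase 1, which releases jasmonate from its methyl ester, gave 4.24, 4.26 and 3.97 at F1, 0.4, 0.85 and 0.29 at F2 and 77.8, 78.3 and 83 at F3 FPKM, a contrast of -4.96 ± 0.23. The repressor was only moderately lower at F2, whereas the esterase was close to absent there and highest at F3.

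The sesquiterpenoid and triterpenoid pathway held 14 peaks (26.4%) and 2 dips (3.77%) among 53 clusters, with 30 higher and 5 lower and a median contrast of 1.42 (1.33 with clusters at 0 set to the floor), and with 10 peaks and 2 dips under RLE. Over its 22 summed numbers the median contrast was 0.27, with 7 sums higher and 2 lower. Its peaks were 6 clusters of germacrene D synthase, 4 of beta-amyrin synthase, and 1 each of taraxerol synthase, sesquiterpene synthase 2, terpenoid synthase 3 and the cytochrome P450 CYP736A12. Of the summed numbers 3 were peaks and 1 was a dip. Cluster-31835.9, matched to germacrene D synthase, which closes a sesquiterpene ring, gave 57.7, 69 and 61.5 at F1, 127, 134 and 129 at F2 and 47.9, 50.5 and 49.2 at F3 FPKM. Its contrast was 1.33 ± 0.07, and under RLE scaling it was higher without passing as a peak. Cluster-8480.0, matched to CYP736A12, gave 0, 0.26 and 1.09 at F1, 10.4, 11.7 and 11.1 at F2 and 0.26, 0.25 and 1.31 at F3 FPKM, a contrast of 4.48 ± 0.60 (adjusted p = 0.000257).

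In tryptophan metabolism, a list chosen after its values were seen, 129 clusters held 20 peaks (15.5%) and 7 dips (5.43%), or 19 and 9 under RLE, with 43 higher and 16 lower and a median contrast of 0.46. Not all of these peaks act on tryptophan, since 4 were catalases and 5 matched caffeic acid 3-O-methyltransferase, which methylates phenolic acids. Cluster-52288.4, matched to tryptophan aminotransferase-related protein 4, a relative of the enzyme that begins auxin synthesis, gave 11.4, 11.5 and 12.5 at F1, 129, 128 and 132 at F2 and 16.2, 14.9 and 15.4 at F3 FPKM, 3.56 ± 0.09 above F1 and 3.48 ± 0.09 above F3 on the log2 scale (adjusted p of the contrast = 2.98e-09). F1 and F3 were close to each other, F2 was 11.8 times the former and 11.1 times the latter, and 3 of the 4 clusters with this name were peaks. All 4 share 1 number and may be isoforms or allelic copies, so they do not count as separate genes. Cluster-52752.0, a second methyltransferase matched to the trans-resveratrol enzyme, was a dip with 3.32, 3.21 and 2.44 at F1, 0.49, 0.57 and 0 at F2 and 81.6, 89 and 89.1 at F3 FPKM.

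Transport and storage of metals and ammonium, also listed after values were seen, held 12 peaks (27.3%) and 3 dips (6.82%) among 44 clusters, with 26 higher and 6 lower and a median contrast of 1.19 (1.13 with clusters at 0 set to the floor), and 10 of 26 summed numbers were peaks. Under RLE there were 7 peaks and 3 dips. Cluster-25647.0, matched to ammonium transporter 1 member 2, which imports ammonium across the plasma membrane, gave 55.4, 44.8 and 58.5 at F1, 389, 392 and 409 at F2 and 141, 145 and 143 at F3 FPKM, a contrast of 2.29 ± 0.06 (adjusted p = 1.61e-08). Cluster-51621.0, matched to chloroplast ferritin-3, which stores iron, gave 229, 248 and 214 at F1, 569, 589 and 569 at F2 and 154, 153 and 151 at F3 FPKM, a contrast of 1.73 ± 0.06 (adjusted p = 4.24e-08). The former was lowest at F1 and the latter lowest at F3, and neither overlapped F2. Cluster-54708.2, matched to ferric reduction oxidase 7, which reduces iron for import into the chloroplast, gave 198, 194 and 206 at F1, 412, 421 and 403 at F2 and 56.2, 55 and 57.6 at F3 FPKM. Cluster-22979.0, matched to copper transporter 5, gave 109, 107 and 109 at F1, 230.4, 212 and 224 at F2 and 59, 73.6 and 75.6 at F3 FPKM. With contrasts of 2.06 ± 0.03 and 1.47 ± 0.08, these last clusters were peaks under TMM and higher without passing as peaks under RLE. The dips of the list were the factor ORG2 described above, a ferritin-like catalase and 1 cluster of ammonium transporter 3 member 1. In related lists drawn up earlier, peaks and dips were closer in number. Metallothioneins and metal transport held 6 peaks and 4 dips among 43 clusters, or 3 and 4 under RLE, with 18 higher and 7 lower. Of its 18 summed numbers 2 were peaks and 3 were dips. Nitrogen metabolism held 5 peaks and 4 dips among 48 clusters, or 3 and 4 under RLE, with 15 higher and 6 lower. Of its 24 summed numbers 1 was a peak and 3 were dips.

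Nucleotide-binding resistance proteins, another list chosen after values were seen, were numerous and of low abundance. Of 241 clusters, 98 were higher and 20 lower, 27 were peaks (11.2%) and 7 were dips (2.90%), with 22 peaks and 8 dips under RLE, and the median contrast was 0.95 (0.79 with clusters at 0 set to the floor). Only 9 of them had a mean of at least 10 FPKM, and of 128 summed numbers 14 were peaks and 1 was a dip. The list was taken by name and also held 7 clusters, with 1 dip, matched to ENHANCED DISEASE RESISTANCE 2. That name does not mark a nucleotide-binding receptor. Cluster-47075.0, matched to RGA5, gave 1.61, 2.77 and 2.04 at F1, 5.9, 4.89 and 6.5 at F2 and 1.06, 1.12 and 0.46 at F3 FPKM, a contrast of 2.16 ± 0.34. Cluster-49687.0, matched to RPM1, which in Arabidopsis guards against a bacterial effector, gave 1.31, 1.12 and 1.43 at F1, 4.04, 3.7 and 4.8 at F2 and 1.64, 2.06 and 1.79 at F3 FPKM, a contrast of 1.64 ± 0.14. F2 was above the other stages by a few FPKM in each. The receptor-like kinases of the cell surface gave shares near those of all clusters, with 29 peaks (7.95%) and 13 dips (3.56%) of 365, or 23 and 16 under RLE.

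Of 38 clusters of pathogenesis-related proteins and chitinases, 3 were peaks and 3 were dips (7.89% each), with 2 and 3 under RLE. Cluster-16264.0, matched to pathogenesis-related protein 1, a marker of salicylate-dependent defence, gave 19.8, 22.6 and 18.7 at F1, 66.1, 69 and 74 at F2 and 15.4, 16.8 and 15.3 at F3 FPKM, a contrast of 2.06 ± 0.09 (adjusted p = 2.68e-07). Cluster-28403.0, matched to a thaumatin-like protein, gave 34.1, 31.8 and 32.4 at F1, 8.25, 6.9 and 8.8 at F2 and 33.5, 33.4 and 31 at F3 FPKM, a contrast of -1.94 ± 0.09 (adjusted p = 2.38e-07). These 2 defence proteins thus moved in opposite directions, the first a peak and the second a dip, each with no overlap.

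**Figure D4:**
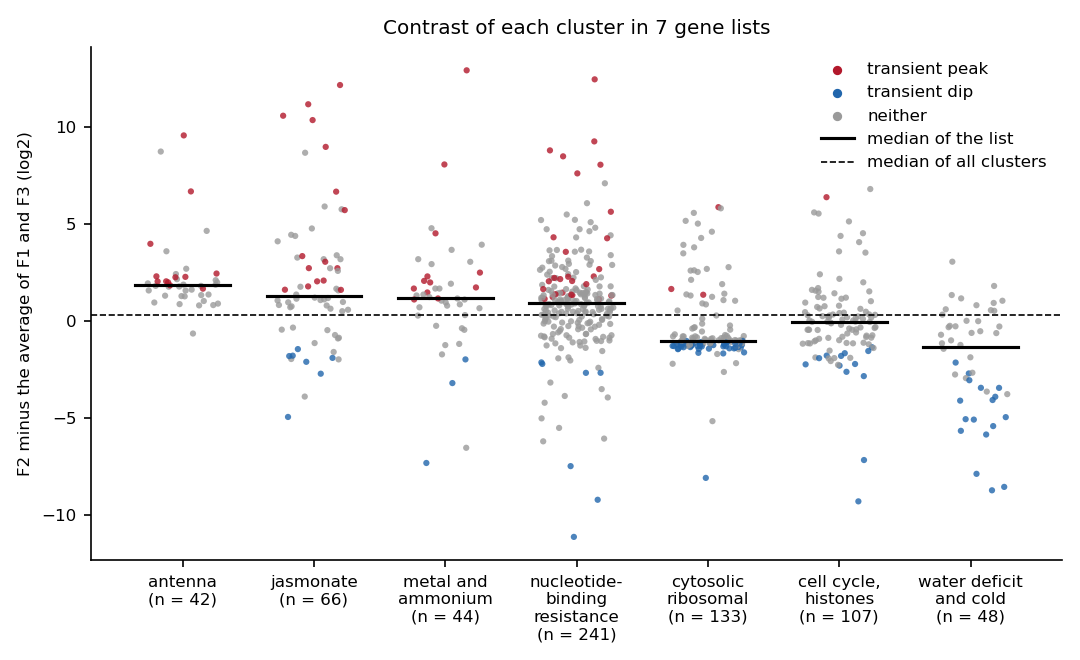
Each point is the contrast (log2, F2 minus the average of F1 and F3) of 1 cluster in 7 gene lists, coloured by class, with the list median as a bar and the median over all clusters (0.29) as a dashed line. Most cytosolic ribosomal proteins lie close to their median of -1.04, most antenna proteins lie near 1.85, and the water deficit list spreads down to -8.74.

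Cytosolic ribosomal proteins included many dips. Of 133 clusters, listed after values were seen, 71 were lower and 19 higher in the contrast, 44 were dips (33.1%) and 3 were peaks (2.26%), and the median contrast was -1.04. Under RLE 63 were dips and 1 was a peak. The dips lay between -8.10 and -1.04, with a median of -1.29, and of 94 summed numbers 27 were dips and 1 was a peak. Among the 92 clusters that reached a mean of 10 FPKM there were 43 dips and 0 peaks by edgeR. The FPKM of the list summed to between 11120 and 12670 per library at F1, to between 5804 and 5988 at F2 and to between 15436 and 16240 at F3. No stage overlapped another, and F2 was the lowest. The wider KEGG ribosome list, drawn up earlier, held 54 dips (22.6%) and 7 peaks (2.93%) among 239 clusters, or 82 and 4 under RLE.

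Cluster-53916.0, matched to 40S ribosomal protein S16, gave 360.1, 383 and 329 at F1, 168, 167 and 149.7 at F2 and 428, 404 and 384 at F3 FPKM, -1.09 ± 0.09 against F1 and -1.16 ± 0.09 against F3 on the log2 scale (adjusted p of the contrast = 4.76e-06). Cluster-35688.0, matched to 60S ribosomal protein L23A near the exit of the peptide tunnel, gave 274, 302 and 257 at F1, 102, 102 and 90.6 at F2 and 397, 402 and 373 at F3 FPKM, a contrast of -1.63 ± 0.08 (adjusted p = 6.27e-07). Proteins of both subunits were therefore among the dips. Cluster-47000.1, matched to L44, gave 256, 318 and 227 at F1, 125, 120.3 and 120.0 at F2 and 381, 378 and 307 at F3 FPKM, a contrast of -1.23 ± 0.14. Cluster-47374.1, matched to L15-1, gave 264, 282 and 245 at F1, 117, 120.0 and 116 at F2 and 334, 346 and 329 at F3 FPKM, a contrast of -1.23 ± 0.07. The F2 libraries of each of the 4 lay below every other library.

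Ribosomal proteins of plastids and mitochondria did not show this pattern as a group. Of their 30 clusters, 11 were higher and 5 lower, 2 were peaks and 2 were dips (6.67% each), with 2 and 4 under RLE, and the median contrast was 0.09, or -0.08 under RLE. Cluster-38896.0, matched to chloroplast 50S ribosomal protein L12, was one of the dips, with 25.3, 25.8 and 21.6 at F1, 10.1, 8.83 and 10.5 at F2 and 30.1, 27.3 and 29.1 at F3 FPKM and a contrast of -1.32 ± 0.12. The difference between the cytosolic and the organelle list was not tested. Ribosome biogenesis held 13 dips (9.42%) and 8 peaks (5.80%) among 138 clusters, with 14 dips and 6 peaks under RLE and a median contrast of -0.04.

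**Figure D5:**
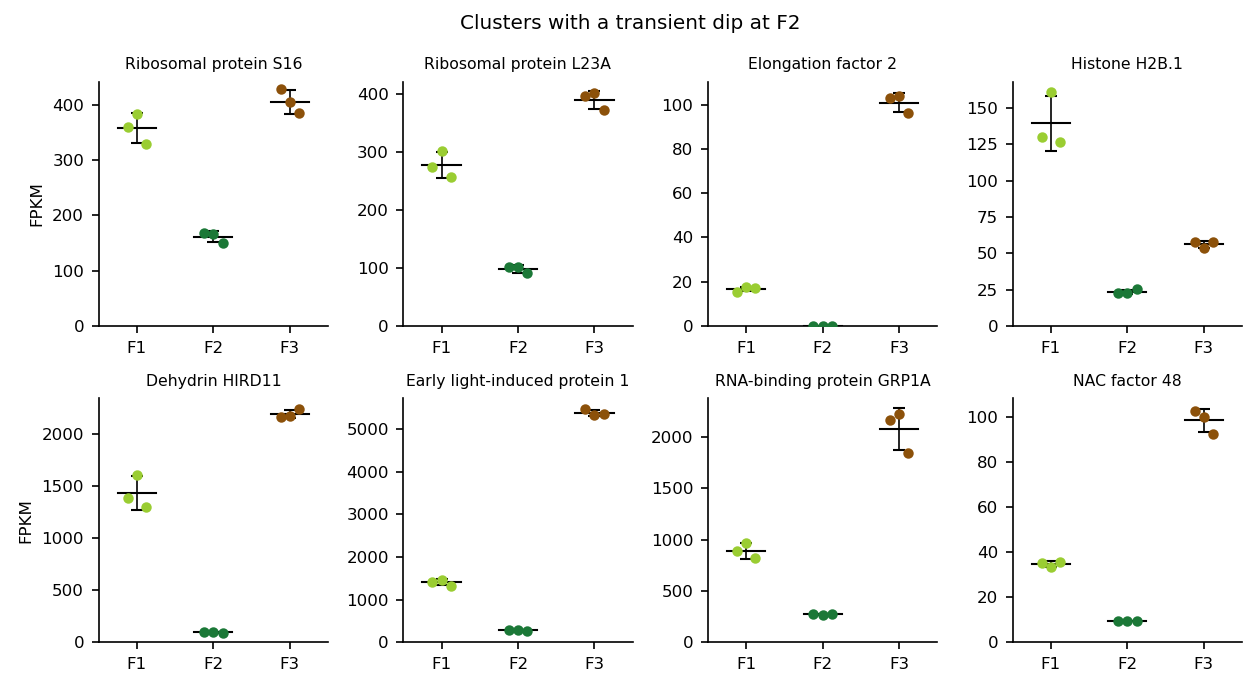
FPKM of 8 clusters with a transient dip, each point 1 library, with the mean (long line) and SD over the 3 libraries of a stage, on axes that start at 0. The 3 F2 libraries lie below the other 6 in every panel, and F3 exceeds F1 in all panels but histone H2B.1.

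The list of dehydrins and other proteins of water deficit and cold held many dips. Its rank among the lists is not read as a result, because it was added after values were seen. Of 48 clusters, listed after values were seen, 24 were lower and 3 higher in the contrast by edgeR, and 17 were dips (35.4%) with 0 peaks. Peaks numbered 0 under RLE, at an unadjusted p under 0.05, by DESeq2 and by limma too, with 18 dips under RLE. The median contrast was -1.34, and 10 of 25 summed numbers were dips. The dips comprised 7 dehydrin clusters, 2 of the membrane protein RCI2B, 3 of late embryogenesis abundant proteins, 2 of galactinol synthase 2, 1 of stachyose synthase and 2 of a galactinol-sucrose galactosyltransferase, so that both the protective proteins and the enzymes of raffinose sugars were included. Summed over the list, FPKM lay between 2000 and 2371 per library at F1, between 410 and 439 at F2 and between 4298 and 4476 at F3.

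Cluster-35923.0, matched to dehydrin HIRD11, gave 1392, 1612 and 1296 at F1, 104, 97.1 and 89.1 at F2 and 2169, 2174 and 2241 at F3 FPKM, -3.83 ± 0.12 against F1 and -4.33 ± 0.12 against F3 on the log2 scale (adjusted p of the contrast = 1.61e-08). This single cluster made up most of the summed level at F1. Cluster-57650.8, matched to dehydrin COR47, gave 26.1, 18.7 and 23.8 at F1, 10.1, 8.34 and 10.2 at F2 and 544, 536 and 578 at F3 FPKM, a contrast of -3.46 ± 0.11. Cluster-57369.0, matched to Lea14-A, gave 15.7, 18.8 and 14.8 at F1, 0.72, 1.87 and 2.15 at F2 and 191, 211 and 199.7 at F3 FPKM, a contrast of -5.09 ± 0.26. Cluster-27521.2, matched to RCI2B, a small membrane protein induced by cold, gave 84.8, 81.9 and 74.7 at F1, 22.3, 23.3 and 17.5 at F2 and 259, 268 and 287 at F3 FPKM, a contrast of -2.71 ± 0.11. In all 4 the order was F3, F1, F2 with no overlap, and COR47 at F1 was much nearer to F2 than to F3.

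Genes of DNA replication and cell division were also represented among the dips, at low levels. Of 82 clusters of the DNA replication pathway, 12 were higher and 22 lower, 13 were dips (15.9%) and 4 were peaks (4.88%), with 13 and 3 under RLE, and the median contrast was -0.31. The FPKM of the pathway summed to between 740 and 848 per library at F1, 626 and 639 at F2 and 473 and 500 at F3. As a sum it thus fell from stage to stage. Cluster-30615.0, matched to subunit B4 of DNA polymerase II, gave 25.1, 30.5 and 24.1 at F1, 7.4, 9.5 and 7.62 at F2 and 52.2, 44.5 and 41.8 at F3 FPKM, a contrast of -1.99 ± 0.16. Cluster-54282.0, matched to subunit 2 of replication factor C, which loads the sliding clamp, gave 9.14, 10.3 and 9.92 at F1, 3.99, 4.1 and 3.07 at F2 and 12, 12.3 and 11.6 at F3 FPKM, a contrast of -1.42 ± 0.14. Neither overlapped between F2 and the rest.

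Among 107 clusters of cell cycle genes and histones, 20 were higher and 27 lower, 13 were dips (12.1%) and 1 was a peak (0.94%), with a median contrast of -0.06 and with 14 dips and 1 peak under RLE. Of the 107, 48 were called below F1, whereas 45 were called above F3 and 18 below it. Their FPKM summed to between 2214 and 2515 per library at F1, 1375 and 1421 at F2 and 1184 and 1262 at F3. As a sum the list therefore fell from stage to stage, unlike the dips named here. Cluster-34983.0, matched to histone H2B.1, gave 130.4, 161 and 126 at F1, 22.6, 22.8 and 25.1 at F2 and 57.6, 53.6 and 57.9 at F3 FPKM, a contrast of -1.81 ± 0.11 (adjusted p = 1.44e-06). Cluster-24728.2, matched to histone H4, gave 67.5, 72.5 and 61.8 at F1, 11.1, 9.86 and 12.1 at F2 and 43.9, 48.2 and 45.4 at F3 FPKM, a contrast of -2.22 ± 0.12. Both histones were highest at F1 and regained part of that level at F3. Cluster-36398.0, matched to cyclin-D3-3, which drives entry into the division cycle, gave 8.59, 8.56 and 7.72 at F1, 1.18, 1.95 and 1.46 at F2 and 8, 7.48 and 8.67 at F3 FPKM, a contrast of -2.31 ± 0.18, with F1 and F3 at nearly the same level.

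Gibberellin enzymes moved in both directions. In the list of gibberellin, brassinosteroid and cytokinin genes, 34 clusters held 5 dips (14.7%) and 1 peak (2.94%), the same counts as under RLE. Cluster-35483.0, matched to gibberellin 3-beta-dioxygenase 1, which makes the active hormone, gave 4.25, 4.23 and 3.89 at F1, 1.42, 1 and 0.53 at F2 and 3, 1.83 and 2.3 at F3 FPKM, a contrast of -1.55 ± 0.32 (adjusted p = 0.00297). Cluster-39167.0, a second cluster with the same match, gave 1.95, 1.93 and 2.04 at F1, 0.34, 0.12 and 0.54 at F2 and 2.35, 2.49 and 2.44 at F3 FPKM, a contrast of -2.64 ± 0.43. Of the enzymes that inactivate the hormone, Cluster-28142.0 was a dip, with 5.67, 5.95 and 5.87 at F1, 1.16, 1.36 and 1.36 at F2 and 18.1, 17.6 and 14.4 at F3 FPKM and a contrast of -2.94 ± 0.15. Cluster-20148.0, matched to gibberellin 2-beta-dioxygenase 1, was the peak of the list, with 0.99, 1.31 and 1.3 at F1, 12.5, 11.3 and 9.27 at F2 and 3.41, 2.22 and 3.23 at F3 FPKM and a contrast of 2.79 ± 0.17 (adjusted p = 1.68e-06).

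Proteins of light response and photoprotection held 5 peaks (9.43%) and 6 dips (11.3%) of 53, but 2 peaks and 8 dips under RLE and 2 and 9 by DESeq2. Cluster-47813.2, matched to early light-induced protein 1, which is induced by light stress, gave 1419.6, 1471 and 1335 at F1, 281, 288 and 272 at F2 and 5472, 5341 and 5347 at F3 FPKM, -2.28 ± 0.06 against F1 and -4.10 ± 0.06 against F3 on the log2 scale (adjusted p of the contrast = 2.57e-09). It belongs to the same protein superfamily as the antenna proteins, and its dip stood against their peaks. Cluster-35017.0, matched to CONSTANS-LIKE 6, a zinc finger protein, gave 24.8, 25.4 and 26 at F1, 71.6, 70.6 and 71.8 at F2 and 14.2, 16.1 and 17.5 at F3 FPKM, a contrast of 1.92 ± 0.07. Antioxidant enzymes held 10 peaks (10.3%) and 13 dips (13.4%) of 97, or 7 and 19 under RLE, where the most abundant peak was the catalase above. Cluster-17131.0, matched to monothiol glutaredoxin-S2, was the most abundant dip named, with 91.2, 102 and 85.5 at F1, 7.31, 5.79 and 5.68 at F2 and 22.3, 24.6 and 23.1 at F3 FPKM and a contrast of -2.78 ± 0.13.

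Transcription factors included both classes, with a lower share of peaks and a higher share of dips than the table as a whole, a difference that was not tested. Of 1161 clusters with a factor family, 260 were higher and 218 lower, 53 were peaks (4.57%) and 90 were dips (7.75%), with 38 peaks and 116 dips under RLE. Where the average over the 9 libraries reached 10 FPKM, 224 factor clusters held 14 peaks and 16 dips. The lower share of peaks and higher share of dips were not seen at that level, where the whole table held 6.12% peaks and 7.62% dips. Of 34 NAC factors, 4 were higher and 13 lower by edgeR, 7 were dips (20.6%) and 0 were peaks, as at an unadjusted p and by DESeq2 and limma, and 7 of 29 summed numbers were dips. Cluster-37911.0, matched to NAC48, gave 35.1, 33.4 and 35.7 at F1, 9.63, 9.63 and 9.31 at F2 and 103, 99.95 and 92.6 at F3 FPKM, a contrast of -2.52 ± 0.06 (adjusted p = 9.16e-09). Cluster-6661.1, matched to NAC21/22, gave 4.31, 4.18 and 2.69 at F1, 1.42, 0.47 and 0.8 at F2 and 201, 189 and 193 at F3 FPKM, a contrast of -4.71 ± 0.27. Cluster-32578.0, matched to JA2L, a factor of stomatal reopening in tomato, gave 3.36, 3.08 and 3.92 at F1, 0.95, 0.93 and 1.16 at F2 and 53.5, 56 and 57.2 at F3 FPKM, a contrast of -3.77 ± 0.14. The NAC dips named were all highest at F3, and 2 of the 3 were low at F1 as well.

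Of 53 ERF factors of the ethylene response family, 8 were higher and 23 lower, 8 were dips (15.1%) and 1 was a peak (1.89%), with 11 and 1 under RLE. Cluster-34472.0, matched to RAP2-3, gave 51.8, 42.1 and 49.3 at F1, 13.6, 16.8 and 16.7 at F2 and 52.1, 49.2 and 52 at F3 FPKM, a contrast of -1.54 ± 0.09 (adjusted p = 9.17e-07). Cluster-41918.0, matched to ERF4, a repressor, gave 14.4, 10.6 and 14.1 at F1, 4.16, 5.16 and 5.98 at F2 and 28.1, 23.8 and 23.9 at F3 FPKM, a contrast of -1.72 ± 0.15. Cluster-42449.0, matched to ERF118, was the peak, with 19.9, 19.1 and 19.8 at F1, 47.6, 50.5 and 45.9 at F2 and 18.1, 18.2 and 17.3 at F3 FPKM and a contrast of 1.45 ± 0.05. RAP2-3 returned to its F1 level at F3, and ERF118 was likewise near equal on either side of F2.

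Other families also held several peaks or dips. Of 46 FAR1 factors, relatives of a regulator of far-red light signalling in Arabidopsis, 6 were peaks (13.0%) and 2 were dips (4.35%), with 4 and 3 under RLE. MYB factors held 5 dips (11.1%) and 1 peak among 45, and bZIP factors 4 dips (12.9%) and 0 peaks among 31 by edgeR, where peaks also numbered 0 at an unadjusted p, by DESeq2 and by limma. HD-ZIP homeodomain factors held 3 dips (12.5%) and 1 peak among 24, with 3 and 0 under RLE. Single clusters of these and other families are given by the rule of abundance. Cluster-57262.0, matched to MYB1R1, gave 14.6, 23.9 and 31.2 at F1, 134, 123 and 117 at F2 and 0 in all 3 libraries at F3 FPKM, at least 465-fold above F3. Cluster-47595.0, matched to RADIALIS-like 1, gave 4.14, 9.4 and 5.63 at F1, 22.5, 27.4 and 24.8 at F2 and 3.56, 7.05 and 5.06 at F3 FPKM, a contrast of 2.21 ± 0.29. Both are MYB-related peaks, and MYB1R1 was lost at F3. Cluster-55911.0, matched to ETC1, a small MYB-like repressor of trichome formation in Arabidopsis, was a dip, with 9.43, 12.6 and 11.9 at F1, 1.4, 2.3 and 1.99 at F2 and 18.3, 18.1 and 12.9 at F3 FPKM and a contrast of -2.74 ± 0.26. Cluster-36704.0, matched to the homeodomain protein HOX6, was a dip with 13.6, 11.6 and 14.2 at F1, 6.26, 5.79 and 5.11 at F2 and 51.8, 49.5 and 51 at F3 FPKM and a contrast of -2.02 ± 0.08. Cluster-15506.2, matched to bHLH93, gave 11.9, 12.1 and 12.1 at F1, 3.4, 4.21 and 3.56 at F2 and 24.7, 26.2 and 26 at F3 FPKM, a contrast of -2.12 ± 0.11. In these 3 dips F3 was the highest, and F2 did not overlap either stage.

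Some groups were called in the contrast with few or no peaks and dips. Of 24 clusters of evening clock genes, 9 were lower by edgeR, yet 0 were peaks or dips, as at an unadjusted p and by DESeq2 and limma, and the median difference was 0.82 above F1 and -4.00 against F3. Cluster-24888.1, matched to Adagio protein 3, a blue light receptor of the clock, gave 0.28, 0.68 and 0.54 at F1, 1.21, 1.37 and 0.92 at F2 and 175, 169 and 169.7 at F3 FPKM, a contrast of -2.89 ± 0.20. Its F2 level was above F1 and below F3. Of 39 WRKY factors, 15 were lower with 1 dip and 1 peak, or 3 dips and 1 peak under RLE. Cluster-35271.0, matched to WRKY47, gave 3.8, 4.36 and 4.13 at F1, 8.3, 7.06 and 8.93 at F2 and 93.9, 102 and 98 at F3 FPKM, 1.08 ± 0.12 against F1 and -3.44 ± 0.12 against F3 on the log2 scale.

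Markers of other cell types did not move as one with F2. Of 55 mesophyll marker clusters, 43 were higher with 13 peaks (23.6%) and 1 dip, or 11 and 1 under RLE, and 12 of these peaks were antenna proteins. Of 33 trichome and epidermis markers, 13 were higher and 5 lower by edgeR with 0 peaks and 0 dips, and of 9 guard cell markers 4 were higher with 0 peaks and 0 dips. These counts were also 0 at an unadjusted p and by DESeq2 and limma. The part of these markers in the other results was not tested. Cluster-36072.0, matched to 3-ketoacyl-CoA synthase 19, which elongates wax precursors, gave 450.0, 460.0 and 443 at F1, 132, 135 and 126 at F2 and 3.86, 2.77 and 3.57 at F3 FPKM, a steady fall in which F2 lay between its neighbours although its contrast was 1.85 ± 0.07. Of 33 xylem and secondary wall markers, 23 were higher with 2 peaks and 2 dips (6.06% each), or 18 higher with 2 and 2 under RLE. Yet 23 of the 33 were called below F1, and 9 stood at 0 counts at F3. The median contrast was 1.73, or 1.01 with clusters at 0 set to the floor. Summed FPKM of these markers fell from between 578 and 618 per library at F1 to between 258 and 264 at F2 and between 55.9 and 58.0 at F3. Cluster-31887.0, matched to Laccase-3, gave 2.65, 2.74 and 2.29 at F1, 56.7, 60.7 and 57.1 at F2 and 11, 9.64 and 12.8 at F3 FPKM, a contrast of 3.53 ± 0.09 (adjusted p = 1.09e-08), and with Laccase-1 made up the peaks of this list. Cluster-21172.0, matched to Laccase-11, which acts in lignin formation in Arabidopsis, was a dip with 4.31, 4.04 and 4.5 at F1, 0.13, 0.17 and 0.17 at F2 and 0.68, 0.53 and 0.57 at F3 FPKM, so that laccases were found in both classes.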

How the data were processed

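Leaf mRNA was sequenced as 150-base read pairs at 3 stages with 3 libraries each, and stages were taken from the labels. The authors deposited raw fragment counts per transcript cluster and library, and FPKM, in which counts are divided by the length of the transcript and the size of the library. Another 12 columns hold log2 fold changes, p-values and calls that the authors deposited from their own DESeq2 comparisons, and none was used. The sources used here name no assembler, aligner or counting tool, and no genome of this species was used. The table holds only clusters that the authors had called at least once.

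Counts were fitted for all 24385 clusters with edgeR 4.0.16 (quasi-likelihood test, TMM scaling, stage as the factor, R 4.3.3), with Benjamini-Hochberg adjustment over all clusters. A call needed an adjusted p under 0.05 and a log2 difference of at least 1, and a peak or dip needed both F2 against F1 and F2 against F3. The test was tried on simulated counts with known changes, where the median estimated fold was close to the simulated one but many changed clusters were not called. A stage at 0 was given a floor of 3 counts per library for folds, and ratios on 1 to 3 counts carry exact 95% intervals, which cover counting error only.

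Clusters were grouped by KEGG pathway, recommended Swiss-Prot name and factor family. The contrast and the lists were chosen with earlier results of these data known, and 9 of 73 lists were added after values were seen, as were the restriction to recommended names and the way library sizes were estimated from FPKM. No enrichment was tested, and lists are read beside the shares of all clusters. Named clusters were the 10 largest peaks and dips (matched, a stage mean of at least 10 FPKM, number sum of the same class) and up to 4 per list or 3 per factor family, the most abundant with a peak or dip and a matching number sum. The 2 clusters with primers were named in addition. Alternatives were DESeq2 1.42.0, RLE scaling, library sizes implied by FPKM, limma 3.58.1 on log2(FPKM + 1) and log2(FPKM + 0.1), a filter of 1 FPKM, the replicate block, each library left out, summed numbers, an arithmetic mean of F1 and F3, and no fold threshold. Replicates differed by more than sampling noise (chi-square per degree of freedom 5.94 to 13.3). Figures were drawn with matplotlib 3.10.9.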

Additional observations from a re-analysis of the deposited data

How the results depend on the processing

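The 4 counts moved most with the unit tested, the fold threshold and summing by number. With limma on log2(FPKM + 1), which compresses low clusters, there were 2514 clusters higher at F2, 1048 peaks and 680 dips. With limma on log2(FPKM + 0.1) there were 5474, 1884 and 1450. Summed by number, 3567 were higher and 2115 lower, with 1282 peaks and 674 dips of 14454 sums. Without a fold threshold there were 2983 peaks and 2261 dips. The other alternatives stayed within 1.5 times: DESeq2 gave 1487 peaks and 1810 dips, of which 1470 and 1298 were peaks and dips in the main result. Under DESeq2, as under RLE, dips outnumbered peaks (peaks were 45.1% of both), and clusters higher in the contrast were 51.5% of calls, against 64.7% in the main result and 54.2% under RLE. No peak turned into a dip or the reverse under any alternative fitted by cluster. Such a switch would need both differences to change sign and pass the threshold again, so this was a weak check. The cause of the shifts between settings was not tested.

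Leaving out each library in turn gave 5838 to 6570 clusters higher, 3264 to 3490 lower, 1620 to 1922 peaks and 1146 to 1329 dips. Replicate numbers did not pair the libraries (correlation of deviations between same-numbered libraries -0.02 to 0.03), and with the replicate block there were 6239 clusters higher, 3277 lower, 1735 peaks and 1156 dips. Of 114 named clusters, all kept their call in the contrast under each library left out and under the block, 113 under DESeq2 and RLE and 109 under limma on log2(FPKM + 1). They were picked by size, abundance and a matching sum, which favours such stability, and the class of peak or dip was not counted here. Among all clusters, 1444 of the 1935 peaks and all 1301 dips kept their class under RLE. Against the arithmetic mean of F1 and F3, 49 of 105 named contrasts moved by more than their SE, by -5.79 to 0.61 with a median of -0.84. Cluster-36072.0 (3-ketoacyl-CoA synthase 19) reversed to -0.75 and Cluster-40181.2 (3-ketoacyl-CoA synthase 6, main contrast 1.43) to -2.70, since a single high stage weighs more in that mean. The table holds only clusters called by the authors, so shares cannot be read as shares of expressed genes, and 3 libraries per stage limit the precision of low clusters.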

Other observations

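Apart from thiamine metabolism, the further lists given here held shares of transient clusters from near those of all clusters to well below them. Phenylpropanoid biosynthesis, the entry to lignin and phenolic acids, had 15 peaks (9.74%) and 8 dips (5.19%) among 154 clusters, or 14 and 12 under RLE, and flavonoid biosynthesis had 7 peaks (7.07%) and 4 dips (4.04%) among 99, or 7 and 7 under RLE, beside 7.94% and 5.34% of all clusters. Starch and sucrose metabolism had 19 peaks (5.76%) and 12 dips (3.64%) among 330, or 14 and 16 under RLE. The cutin, suberine and wax pathway had 2 peaks (2.27%) and 4 dips (4.55%) among 88, or 2 and 5 under RLE, although 26 of its clusters were higher and 12 lower in the contrast. Auxin response genes had 34 of 108 clusters higher and 10 lower but only 2 peaks (1.85%) and 3 dips (2.78%), or 2 and 5 under RLE. Thiamine metabolism, a small pathway of vitamin synthesis listed after values were seen, had 10 peaks (23.3%) and 3 dips among 43 clusters, or 9 and 3 under RLE, which came from 17 numbers of which 2 were peaks as sums.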
